A study of Mus musculus with 104 samples.

Results

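D4 is a GalNAc-conjugated siRNA whose guide strand is complementary to the mRNA of Ttr, and it is the parent of a series in which the chemistry of a single guide nucleotide was varied. The libraries described here are the 4 that carry the treatment label for D4 at a dose of 10 nM, out of 104 libraries in the series, and they were set against the 8 libraries labelled mock, a transfection control. All cells were primary mouse hepatocytes bought from a supplier and treated with the lipid reagent Lipofectamine RNAiMax, and RNA was taken after 24 h. D4 carried 2′-F and 2′-OMe sugars throughout with no glycol nucleic acid (GNA). Another 3 groups at the same dose of 10 nM, with 4 libraries each, served for direct comparison. D5 has the guide sequence of D4 with GNA-G at guide position 6, D6 has it with the isonucleotide GNA-isoG at position 6, and D1 is the parent siRNA of another sequence, directed at Hao1. Levels with D4 at doses of 0.1, 1 and 50 nM, with 4 libraries each, are also given, without a test. The strain, sex and age of the animals were not given in the sources used here, and isolated hepatocytes in culture lack the blood flow, hormones and neighbouring cell types of the liver.

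In RNA interference, a guide strand loaded into an Argonaute protein directs cleavage of an mRNA to which it is complementary along its length. The same complex can also act in the manner of a microRNA, lowering mRNAs that pair with only the seed, guide positions 2 to 8, usually through sites in the 3′-UTR. Ttr encodes transthyretin, a carrier of thyroxine and of retinol-binding protein in plasma that hepatocytes secrete in large amounts. Hepatocytes also make albumin, clotting and complement proteins, and carry out the urea cycle, bile acid synthesis and drug metabolism. In culture they can lose such functions and take on a flattened, matrix-producing state, for which transforming growth factor beta (TGF-beta) is a known driver.

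Gene counts summed to between 4976512 and 5559333 per D4 library (median 5332585) and to between 3409963 and 5308584 per mock library (median 4927571). Values below are CPM, counts scaled to a common library size with TMM factors, and a fold change is that of edgeR's quasi-likelihood test. A gene was called at an adjusted p (Benjamini-Hochberg over all genes tested) under 0.05. The labels number the replicates but do not say that they came from separate animals or cultures, so p-values measure only the spread between these samples. Spike-in RNA (ERCC) took 0.709% to 0.994% of the counts with D4 and 0.453% to 0.79% in mock. Its share was 0.576% to 0.888% with D5, 0.521% to 1.14% with D6 and 0.63% to 0.941% with D1. What lies behind these shares was not tested, and fewer cells and less RNA per cell cannot be told apart in these bulk samples.

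D4 replicate 2 lay furthest from the other D4 libraries. Its median gene lay 0.178 (log2, either direction) from the mean of the other D4 libraries, against 0.115 for replicate 1, 0.124 for replicate 3 and 0.154 for replicate 4. Its deviation moved with transcript length. Relative to the mock mean, the median gene with a transcript under 1500 bases was 0.23 higher on the log2 scale in D4 replicate 2, and the median for 6000 bases or more was −0.20. In the other D4 libraries the short class lay at 0.05 to 0.12 and the long class at −0.06 to 0.00, and single mock libraries ranged from −0.10 to 0.10 for the short class and from −0.04 to 0.05 for the long class. Many results that turned on a single library are given with and without it. Some genes named below are given without this. Tnrc6a, Mcm3, Ndufa8, Gbp7, mt-Cytb and Oas1a, among others, lost the call in fits lacking a single library.

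The silenced gene was checked first. Ttr stood at 1.43, 1.79, 2.22 and 0.576 CPM in D4 replicates 1 to 4, which were 8, 9, 12 and 3 reads, and its CPM in mock ran from 544 to 722 with a median of 675. Every D4 library lay far below every mock library. The log2 fold change was −8.76 ± 0.15 (SE), a 432-fold lower level (adjusted p = 1.65e-27, edgeR). Hao1, the liver glycolate oxidase gene that D1 targets, was lower too, at 17.7, 20.1, 20.4 and 20 CPM against a mock range of 28 to 38.6 with a median of 34.2 (log2 fold change −0.79 ± 0.11, adjusted p = 1.05e-06, edgeR). F12, coagulation factor XII, stood between 88.1 and 115 CPM with D4 and between 67.9 and 88 in mock, a log2 fold change of 0.31 ± 0.08 (adjusted p = 0.00313, edgeR). Gapdh, a glycolytic enzyme often used as a reference, was not called (0.06 ± 0.05, adjusted p = 0.433, edgeR).

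Beyond the target, D4 at 10 nM went with change in both directions across the transcriptome. Of 11352 genes tested, 3019 were called (26.6%), of which 1388 were higher (12.2%) and 1631 lower (14.4%). Most of these changes were small. The median called increase was 0.37 and the median called decrease −0.45 on the log2 scale, and only 108 higher and 178 lower genes changed by 1 or more in log2. The median over all genes tested was 0.01. Without D4 replicate 2 the calls numbered 2501. Calls also differed with transcript length: under 1500 bases 17.8% of genes were higher and 4.46% lower, while at 6000 bases or more 8.62% were higher and 23.3% lower, and what part of these calls goes with length was not tested. In 703 genes all 4 D4 libraries lay above all 8 mock libraries (6.19%), and in 948 they lay below them (8.35%).

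**Figure D1:**
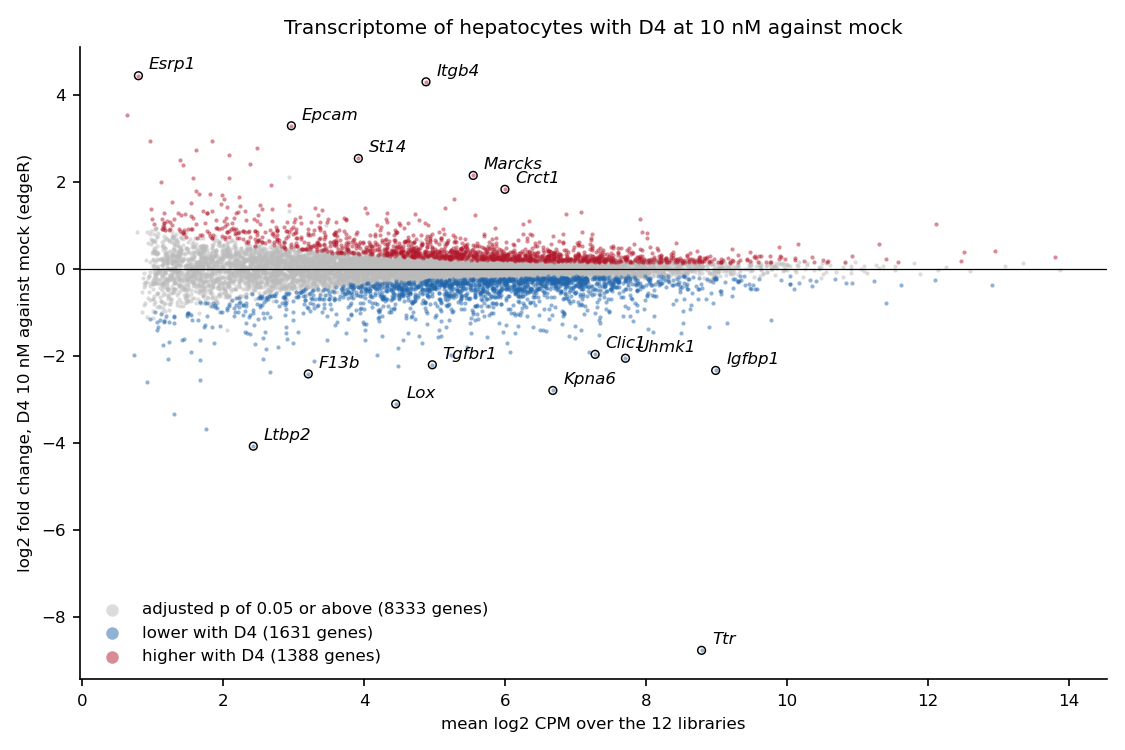
Log2 fold change of D4 at 10 nM against mock (vertical axis, edgeR) for each of the 11352 genes tested, against mean log2 CPM over the 12 libraries (horizontal axis). Blue points are the 1631 genes called lower, red points the 1388 called higher and grey points the rest; Ttr sits alone at −8.76, while Itgb4 and Esrp1 lie above 4.

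The 28 genes with the largest called changes, 14 in each direction, were taken among genes with a mean of at least 5 CPM over the 12 libraries and no overlap between D4 and mock. Ttr led the decreases. Several of the others encode proteins of the extracellular matrix or of growth factor signalling. Ltbp2, a matrix protein of the latent TGF-beta binding family, stood at 0.716, 0, 0.185 and 0.768 CPM with D4, which were 4, 0, 1 and 4 reads, and at 3.94 to 10.1 CPM in mock with a median of 7.83 (log2 fold change −4.07 ± 0.39, adjusted p = 1.53e-09, edgeR). Lox, the lysyl oxidase that crosslinks collagen and elastin, was at 5.19, 1.59, 4.44 and 3.07 CPM against 23.7 to 41.1 in mock with a median of 29.5 (−3.10 ± 0.23, adjusted p = 4.31e-09, edgeR). For both genes the highest D4 library stayed below the lowest mock library.

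Tgfbr1, the type I receptor kinase for TGF-beta, stood at 10.9, 6.96, 10.2 and 8.83 CPM with D4, and in mock at 35 to 49.9 with a median of 42.7. Its log2 fold change was −2.20 ± 0.14 (adjusted p = 1.07e-13, edgeR), and the groups did not overlap. The receptor tyrosine kinase Axl was at 6.98, 5.17, 5.74 and 7.87 CPM against 21.9 to 36.9 in mock (−2.22 ± 0.15). Igfbp7, a secreted protein that binds insulin-like growth factors, was at 1.15 to 2.22 CPM against 6.47 to 8.76 (−2.07 ± 0.23). Nox4, an NADPH oxidase that makes hydrogen peroxide, was at 7.95 to 18 CPM against 27.4 to 63.8 (−1.98 ± 0.25).

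Some of the other large decreases were in liver-secreted and liver-metabolic products. Igfbp1, a hepatocyte-secreted binding protein for insulin-like growth factors whose gene insulin represses, had a mock level like that of the target, and Igfbp1 stood at 140, 148, 135 and 128 CPM with D4 and 538 to 875 in mock with a median of 696. That was a 5.03-fold lower level (log2 fold change −2.33 ± 0.14, adjusted p = 3.53e-08, edgeR), with no overlap. F13b, the carrier subunit of coagulation factor XIII, was at 1.73 to 2.78 CPM against 11 to 15.4 (−2.41 ± 0.20). Ugt2b1, a glucuronosyltransferase, was at 2.58 to 3.76 CPM against 9.46 to 16.3 (−2.11 ± 0.21); it belongs to a family of close copies, so reads shared between them may have been left out of the counts.

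The remaining large decreases were in intracellular proteins. Kpna6, an importin alpha that carries proteins into the nucleus (chromosome 4, 129537773 to 129566567, GRCm39), stood at 18.3, 23.5, 23.7 and 17.9 CPM with D4 and 130 to 156 in mock with a median of 144. Its log2 fold change of −2.79 ± 0.09 had an adjusted p of 7.08e-21 (edgeR). Uhmk1, a kinase with an RNA-binding motif that acts on splicing factors (chromosome 1, 170020989 to 170042989), was at 71.4, 48.7, 68.1 and 81 CPM against 260 to 292 with a median of 285 (−2.05 ± 0.09, adjusted p = 1.02e-16, edgeR). In both genes the D4 and mock libraries were separated by a wide gap. Ccne1, the cyclin that drives entry into S phase, was at 4.57 to 7.49 CPM against 20 to 26.9 (−1.98 ± 0.14). Elmod1, a regulator of small Arf-family GTPases, was at 0.398 to 2.5 CPM against 4.59 to 10.9 (−2.36 ± 0.32).

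The complement of the D4 seed was looked for in the longest annotated 3′-UTR of each gene (GENCODE M39, GRCm39; sense strand of the transcript only). The strongest match, mer8, is CTCTATAA, the complement of guide positions 2 to 8 followed by A, and it contains each of the others: mer7m8 is CTCTATA and mer7A1 is TCTATAA. Among the 10728 genes tested that had a 3′-UTR, 20.2% held at least 1 of these and 3.09% held mer8. Of the 14 largest decreases, 5 held a match, which were Ttr, Uhmk1, Tgfbr1, Axl and Igfbp7, and 2 of them, Ttr and Uhmk1, held mer8. Ttr is the intended target, so its match was fixed by the design of the guide and says nothing on seed pairing alone. Of the 14 largest increases 4 held a match and 0 held mer8. Over all calls, a match was held by 36.2% of the 1592 genes called lower and 12.6% of the 1361 called higher that had a 3′-UTR, and mer8 by 8.23% (131 genes) and 0.882% (12 genes). The median 3′-UTR was 2552 bases in the genes called lower, 1615 in those called higher and 1915 in all tested, so the chance of holding a match was not equal between them.

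The sites in 4 of the large decreases are shown with 8 bases on each side of the mer8 window, 5′ to 3′ on the transcript, and capitals mark the bases of the match. Below them are sites of Tgfbr2 and Skil, whose products act in TGF-beta signalling, and of Marcks and Cdcp1, which held a match and rose. The last pair belongs to the smaller share of genes that held a match and were called higher. Both of these are mer7A1, while another 2 of the 14 largest increases, not shown, held mer7m8. Cyp7b1, which was called higher with a log2 fold change of 1.17, held a mer8 in a 3′-UTR of 9499 bases.
Uhmk1, mer8, chr1:170026696-170026719, minus strand: ctaacacaCTCTATAAccatttct
Tgfbr1, mer7m8, chr4:47411234-47411257, plus strand: actttaaaCTCTATAgtctaaaaa
Axl, mer7A1, chr7:25477593-25477616, minus strand: gttctcccaTCTATAAgatggtca
Igfbp7, mer7A1, chr5:77493857-77493880, minus strand: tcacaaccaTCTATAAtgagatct
Tgfbr2, mer7m8, chr9:115919057-115919080, minus strand: ctatatctCTCTATAtatagccat
Skil, mer8, chr3:31174310-31174333, plus strand: ctactctgCTCTATAAtttagtgt
Marcks, mer7A1, chr10:37010317-37010340, minus strand: ggacaggttTCTATAAggaagtaa
Cdcp1, mer7A1, chr9:123000851-123000874, minus strand: atcacccagTCTATAAagtgtttg

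Matches before the 3′-UTR, in the 5′-UTR and coding sequence of the same transcripts, were rarer, at 8.35% of the genes tested, 13.1% of those called lower and 6.83% of those called higher. They were present in 4 of the 14 largest decreases, Ltbp2, Elmod1, Igfbp1 and Ccne1, and in 3 of the 14 largest increases, Itgb4, Cdcp1 and Tgm1. Igfbp1 and Itgb4 each held a mer8 there. Lox, Kpna6, F13b, Ugt2b1 and Nox4 held none of these letters in either stretch. A match is given as a description of the sequence, and whether the guide acted at it was not tested.

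The largest increases were led by proteins of epithelial surfaces. Itgb4, the integrin beta subunit of hemidesmosomes (chromosome 11, 115865333 to 115899239), stood at 74.3, 86.9, 66.8 and 75.3 CPM with D4 and 2.34 to 5.59 in mock with a median of 4.06. This was a 19.7-fold higher level (log2 fold change 4.30 ± 0.13, adjusted p = 1.34e-21, edgeR). Epcam, an epithelial cell adhesion molecule, was at 14.1, 21.3, 20.9 and 14 CPM against 0.589 to 2.82 with a median of 1.66 (3.29 ± 0.22, adjusted p = 7.37e-13, edgeR). St14, the membrane serine protease matriptase, was at 29.9, 37.4, 28.5 and 30.7 CPM against 3.35 to 7.72 with a median of 5.26 (2.54 ± 0.15, adjusted p = 4.54e-14, edgeR). In each of these genes the lowest D4 library exceeded the highest mock library.

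Marcks, a membrane-bound protein kinase C substrate that crosslinks actin, was at 92.2, 100, 103 and 80.1 CPM against 15 to 28.8 with a median of 20.1 (2.15 ± 0.10, adjusted p = 2.42e-16, edgeR). Cdcp1, a transmembrane protein that matriptase can cleave, was at 48.5 to 63.7 CPM against 20.1 to 25.7 (1.40 ± 0.09). Tgm1, a transglutaminase of the epidermal barrier, was at 23.1 to 27.6 CPM against 6.08 to 13.4 (1.41 ± 0.14). Crct1, a small cysteine-rich gene of the epidermal differentiation region, rose from a mock range of 23 to 47.3 CPM to 94.7 to 143 (1.83 ± 0.17). None of these D4 values fell within the mock range.

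The other large increases were of mixed function. Slc22a26, an organic anion transporter, was at 10.2 to 12.7 CPM against 1.74 to 4.14 (1.92 ± 0.19), and Steap4, a metalloreductase, at 55.9 to 89.4 against 18.3 to 27.9 (1.60 ± 0.11). Sec14l4, a lipid-binding protein, changed by 1.46 ± 0.19, the actin-binding Ablim3 by 1.46 ± 0.19 and the autophagy protein Atg9b by 1.40 ± 0.18. The non-muscle myosin Myh14 changed by 1.35 ± 0.24. None of the 28 genes lost its call in any of the 19 alternative analyses.

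**Figure D2:**
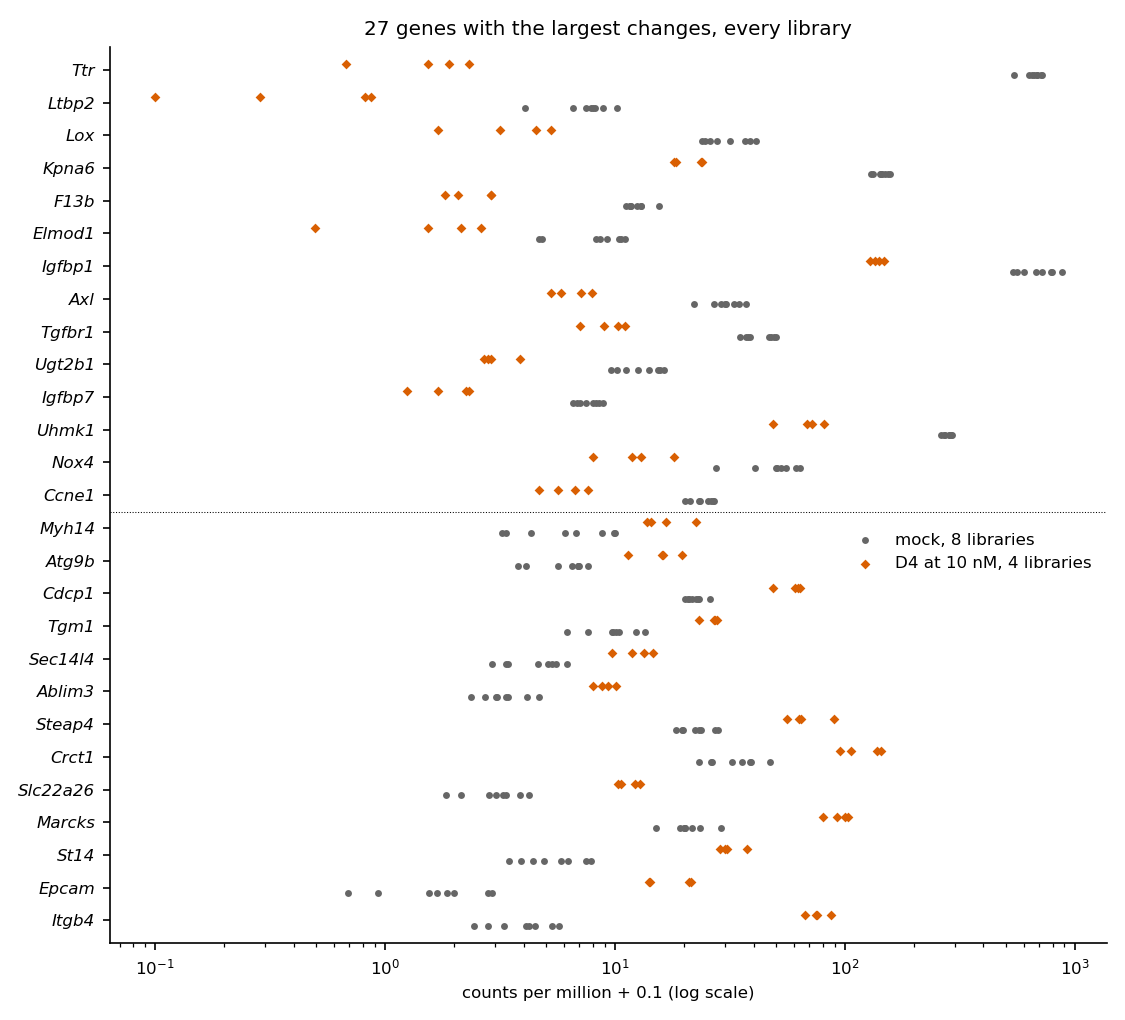
CPM + 0.1 on a log axis for each library and 27 of the 28 genes with the largest called changes, with the 4 D4 libraries as orange diamonds and the 8 mock libraries as grey circles; the dotted line parts 14 decreases from 13 increases. The groups do not overlap in any row, as the choice of genes required, and the widest gaps on this scale are those of Ttr, Itgb4 and Kpna6.

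Because matrix and epithelial genes stood among the largest changes, the rest of each set was read from 2 lists drawn up after the values were seen, so their counts are a description and support nothing on their own. Of 38 genes of TGF-beta signalling and matrix tested, 19 were called lower (50%) and 6 higher (15.8%). The shares over all genes tested were 14.4% lower and 12.2% higher. The median log2 fold change of the list was −0.22 against 0.01 over all genes. On the receptor side, Tgfbr2, the type II receptor, was at 108, 104, 105 and 115 CPM against 186 to 223 (−0.92 ± 0.07, adjusted p = 2.07e-12, edgeR). The ligand gene Tgfb1 changed by −0.61 ± 0.12. Among nuclear components, Skil, a repressor of Smad proteins that TGF-beta itself induces, changed by −0.85 ± 0.10. Smad3, a transcription factor that receptors of this family phosphorylate, was slightly higher at 170 to 180 CPM against 137 to 155 (0.23 ± 0.06). Other members rose further, and values in the list ran from −4.07 to 1.14. In 15 of its genes every D4 library lay below every mock library, and in 4 every D4 library lay above.

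Fbln2, a matrix fibulin in the same list, was at 16.7 to 33.3 CPM against 66.8 to 109 (−1.91 ± 0.17), with no overlap. Of the 19 genes called lower, 8 held a seed match in the 3′-UTR, a share near the 36.2% of all genes called lower; Fbln2, Lox and Ltbp2 held none there.

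Markers of matrix-producing cells were measured beside these genes. Of 15 stellate cell and fibroblast markers only 2 were tested, the rest being too low or absent. Their summed level was 251 to 379 CPM with D4 and 304 to 380 in mock, most of it Ecm1. Reln was called lower (−0.64 ± 0.16, adjusted p = 0.00438, edgeR) with overlap of the groups, and 2 of the markers were at 0 in all 12 libraries. Of 15 endothelial markers 2 were tested and 0 called, Stab1 at −0.60 ± 0.24 (adjusted p = 0.0584, edgeR) and Oit3 at −0.24 ± 0.28, and the sum was 8.64 to 11.1 CPM against 10.5 to 19.1. Stab1 lay near the threshold and passed it without D4 replicate 2 (−0.78, adjusted p = 0.0268, edgeR), without mock replicate 4, 7 or 8 (adjusted p = 0.0494, 0.0371 and 0.0462, edgeR) and with the replicate block (adjusted p = 0.0346, edgeR). Of 17 macrophage markers 2 were tested and Cd68, a lysosomal protein, was called higher (0.64 ± 0.13), with a summed level of 206 to 302 CPM against 203 to 257 and 8 markers at 0 in every library. The part of these other cell types in the matrix genes was not tested.

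In the list of epithelial junction and surface genes, 34 of 53 tested were called higher (64.2%) and 3 lower (5.66%). Over all genes tested 12.2% were higher and 14.4% lower. The median log2 fold change of the list was 0.45. Cdh1, the cadherin of epithelial adherens junctions, was at 364, 385, 411 and 346 CPM with D4 and 156 to 193 in mock with a median of 169 (1.15 ± 0.06, adjusted p = 4.89e-15, edgeR). Spint1, an inhibitor of matriptase, was at 4.12 to 5.17 CPM against 0.565 to 1.95 (2.38 ± 0.30), and Pkp3, a desmosomal plakophilin, at 4.22 to 7.16 against 0.294 to 1.51 (2.73 ± 0.30). The epithelial splicing factor Esrp1 was at 2.78 to 4.03 CPM against 0 to 0.389, with a fitted log2 change of 4.44 ± 0.49 that rests on few mock reads. Each of these rose without overlap.

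Among the members called lower were Cldn2, a pore-forming claudin (29.6 to 50.6 CPM against 71 to 100, −1.05 ± 0.11), and Zeb1, a transcriptional repressor of epithelial genes (20.5 to 25.9 CPM against 34.6 to 56.2, −0.92 ± 0.11, adjusted p = 3.02e-07, edgeR). Zeb1 and the splicing factor Esrp1 are not junction or surface proteins, so the list is wider than its name. Leaving out any library in turn gave 29 to 34 genes called higher in the epithelial list and 18 to 20 called lower in the matrix list.

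Bile duct cells share several of these surface proteins. Of 8 cholangiocyte markers tested, 3 were called higher (37.5%, against 12.2% of all genes) and 0 lower. The sum of the markers was 447 to 469 CPM with D4 and 323 to 361 in mock. Besides Epcam the markers called higher were Krt19, a keratin (145 to 187 CPM against 106 to 134, 0.56 ± 0.07), and Bicc1, an RNA-binding protein (0.33 ± 0.07). The duct factor Sox9 was not called (0.11 ± 0.13, adjusted p = 0.583, edgeR). Of 19 hepatocyte markers, 4 were called higher (21.1%) and 3 lower (15.8%), where all genes gave 12.2% and 14.4%. Alb was at 15104 to 17370 CPM against 12447 to 14431 (0.27 ± 0.05). The summed level of the markers was 22833 to 25344 CPM against 20678 to 25028. Not every hepatocyte marker was abundant. Besides the silenced Ttr with D4, Cps1, the first enzyme of the urea cycle, stood at 2.59 ± 0.701 CPM against 4.88 ± 1.09 (SD, n = 4 and 8), Asgr1, a subunit of the asialoglycoprotein receptor, at 4.6 ± 1.15 against 3.36 ± 0.91, and Tat, tyrosine aminotransferase, at 5.37 ± 2.05 against 6.72 ± 0.926. Of these 3, only Cps1 was called. Without D4 replicate 2 the list had 2 higher. How far a change in cell make-up enters the epithelial genes was not tested.

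**Figure D3:**
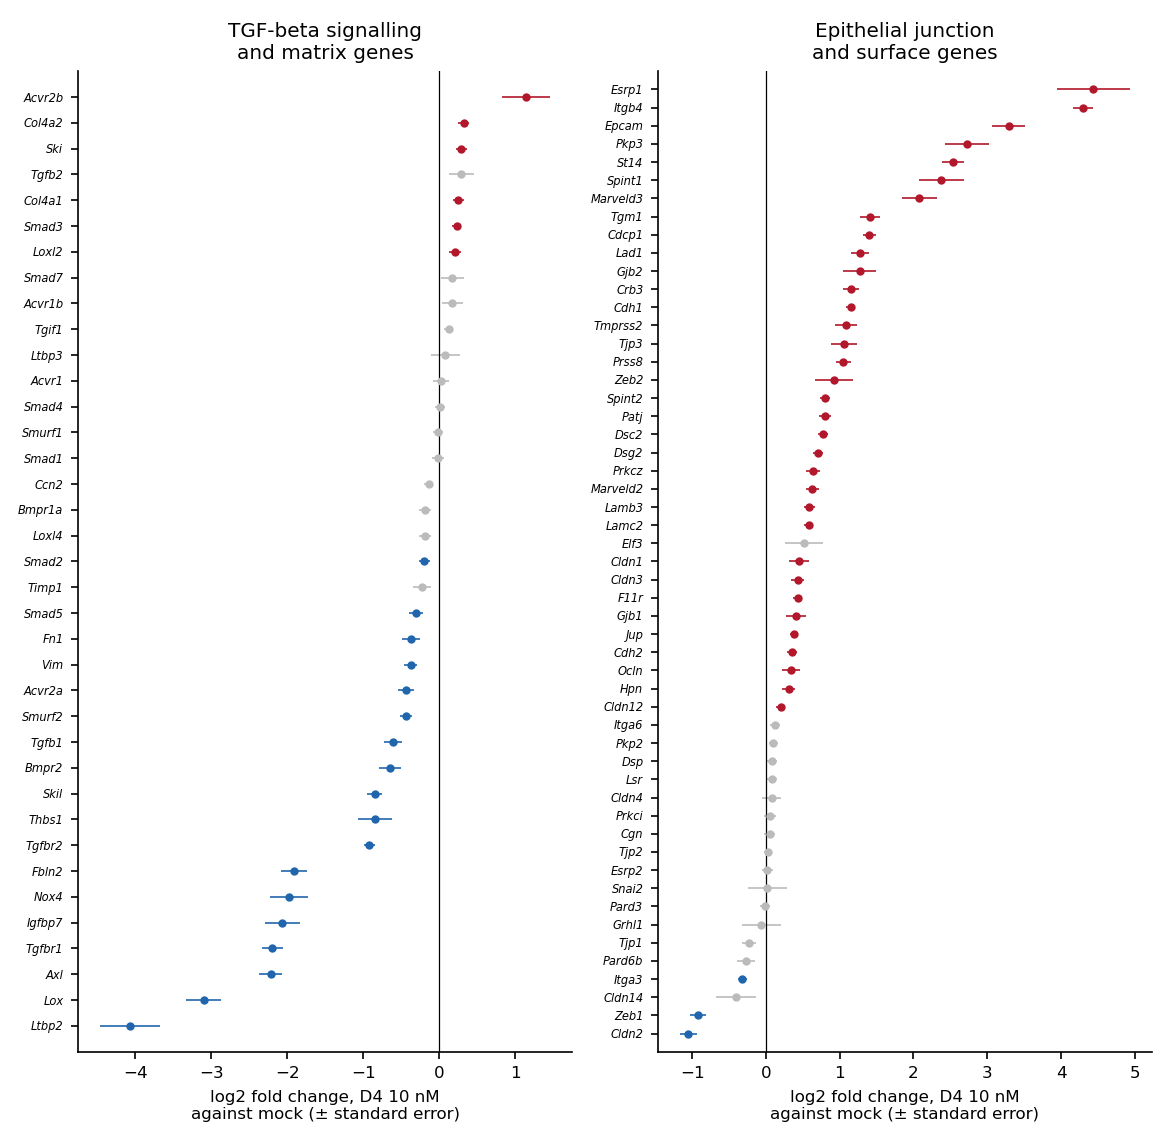
Log2 fold change with its standard error (horizontal axis) for 37 of the 38 tested genes of TGF-beta signalling and matrix (left) and the 53 tested epithelial junction and surface genes (right), sorted by value; blue marks a gene called lower, red a gene called higher and grey a gene not called. The left panel reaches −4.07 at Ltbp2 and the right panel 4.44 at Esrp1. Both lists were made after the values were seen.

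For the remaining biology 32 lists of pathways and cell types were used, and each count is set against the 12.2% of all genes called higher and the 14.4% called lower. Counts of a few genes are fragile. Where leaving out single libraries moved a count by over 1.5 times, its range or its value without a library is given in most cases, but not in all. Cell cycle genes were called lower more often than higher: 17 of 39 tested were lower (43.6%) and 6 higher (15.4%), or 3 higher without D4 replicate 4. Besides Ccne1 they included Rrm2, a subunit of ribonucleotide reductase, at 40.4, 39.6, 30.7 and 53 CPM against 59.5 to 85.2 (−0.80 ± 0.12, adjusted p = 1.41e-05, edgeR). In the other direction were Cdk4, a kinase of G1 phase (0.39 ± 0.07), Cdkn1a, the cell cycle inhibitor p21 (0.28 ± 0.06), and Mcm3, a part of the replicative helicase (0.28 ± 0.08). Among 29 p53 targets 10 were higher and 3 lower, with a median of 0.19. The antiproliferative Btg2 was at 169 to 212 CPM against 82.6 to 115 (0.84 ± 0.07) and the proapoptotic Bbc3 changed by 0.74 ± 0.14. Trp53inp1 and Ccng1, which p53 also induces, were lower, by −0.68 ± 0.08 and −0.39 ± 0.07, so the list did not move as a unit.

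Cytosolic ribosomal protein genes had the highest share called higher of the 32 lists with at least 8 genes tested: 44 of 80 (55%), with 0 called lower. The changes were small, with a median of 0.18 and a highest value of 0.32. Rps15 was at 325, 371, 328 and 357 CPM against 261 to 321 (0.25 ± 0.06, adjusted p = 0.00196, edgeR), Rpl36a changed by 0.30 ± 0.06 and Rps27l by 0.32 ± 0.08. These genes are short and have many near-identical pseudogenes, so their counts are uncertain. Without D4 replicate 2 the number called higher was 23 and without replicate 4 it was 20, while the median stayed at 0.14 and 0.15.

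Nuclear genes of the respiratory chain gave 20 of 77 called higher and 2 lower (median 0.14). Uqcr10, a small subunit of complex III, was at 59.8 to 69.8 CPM against 41.6 to 54.7 (0.36 ± 0.08) and the ATP synthase subunit Atp5j2 changed by 0.32 ± 0.07, while Ndufa8 of complex I was lower (−0.25 ± 0.08). Leaving out D4 replicate 2 gave 14 higher, and the number lower ranged from 0 to 2. Of the 9 tested transcripts encoded in the mitochondrion, 2 were called higher, mt-Nd4 (0.23 ± 0.05) and mt-Cytb (0.18 ± 0.06), with a range of 1 to 4 as single libraries were left out. In lysosome and autophagy genes 14 of 38 were higher and 2 lower (1 to 3 lower as libraries were left out). Gabarapl1 and Map1lc3a, proteins that coat the autophagosome membrane, changed by 0.60 ± 0.06 and 0.58 ± 0.08, and Npc1, the lysosomal cholesterol transporter, by −0.26 ± 0.07. The short-transcript shift of D4 replicate 2 moves in the direction of the ribosomal and respiratory counts, and its part in them beyond the counts without that library was not tested.

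Lipid genes were called in both directions in each branch. In cholesterol synthesis and its control 10 of 25 were called lower (40%) and 2 higher (1 to 2 higher as libraries were left out). Stard4, a sterol carrier, was at 80, 61.6, 55.2 and 68.2 CPM against 115 to 125 in mock with a median of 116 (−0.83 ± 0.08, adjusted p = 8.3e-10, edgeR). Insig1, which retains the sterol sensor in the endoplasmic reticulum, changed by −0.49 ± 0.08 and Hmgcs1, which makes the precursor HMG-CoA, by −0.36 ± 0.06, while Fdft1, squalene synthase, was higher (0.27 ± 0.07). In fatty acid and triglyceride synthesis 7 of 25 were higher and 5 lower, from the mitochondrial-facing acetyl-CoA carboxylase Acacb (1.05 ± 0.13) to Agpat2, an acyltransferase of phosphatidic acid synthesis (−0.87 ± 0.08), and Acly, ATP citrate lyase (−0.47 ± 0.06). With D4 replicate 2 left out there were 4 higher. Fatty acid oxidation gave 6 of 33 higher and 3 lower, or 4 and 2 without D4 replicate 2. Hadh and Decr1, enzymes of beta-oxidation, changed by 0.35 ± 0.07 and 0.34 ± 0.08, and Angptl4, a secreted inhibitor of lipoprotein lipase, by −0.44 ± 0.12.

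Bile acid genes gave 5 of 18 lower and 2 higher. Abcb11, the bile salt export pump, changed by −0.42 ± 0.10 and the uptake carrier Slco1a1 by −0.75 ± 0.21, while Cyp7b1, a hydroxylase of the alternative pathway, was at 2.78 to 5 CPM against 0.294 to 2.96 (1.17 ± 0.31) and overlapped mock. Drug metabolism was split. Of 44 genes tested 11 were higher and 5 lower (5 to 8 as libraries were left out), and the decreases were the larger in size, with the carboxylesterase Ces1d at 8.7 to 11.1 CPM against 27 to 36.7 (−1.63 ± 0.12, adjusted p = 6.96e-12, edgeR) and Cyp2c70 at 43.6 to 59.2 against 132 to 174 (−1.54 ± 0.08). Among the increases were Ephx1, microsomal epoxide hydrolase (0.43 ± 0.07), and Cyp3a13 (0.46 ± 0.07). Several of these belong to families of close copies, whose shared reads the counting could leave out.

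In the urea cycle and amino acid catabolism 15 of 42 were called higher (35.7%) and 6 lower. The ornithine aminotransferase Oat was at 46.5 to 54.6 CPM against 26.2 to 40.1 (0.64 ± 0.09). Cbs, which makes cystathionine from homocysteine, was higher (0.81 ± 0.11), and Cth, which cleaves cystathionine to cysteine, was lower (−0.81 ± 0.08). Bckdha, a subunit of the branched-chain keto acid dehydrogenase, changed by 0.68 ± 0.11. The glycolysis and gluconeogenesis list had 5 of 26 lower (3 to 6 as libraries were left out) and 1 higher (1 to 2), Pfkfb3 (0.57 ± 0.13). Its largest decrease was that of Igfbp1, a secreted binding protein that was in the list but is not an enzyme of either pathway. The hexokinase Hk1 was also lower (−0.54 ± 0.16).

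Secreted liver proteins were divided. Of 29 plasma carriers and apolipoproteins 11 were higher (37.9%), among them Ahsg, fetuin-A (0.51 ± 0.09), and Apoa4 (0.37 ± 0.07), and 4 lower, among them Ttr and Afp, alpha-fetoprotein (−0.76 ± 0.11). Apob, the structural protein of very-low-density lipoprotein with a very long transcript, was at 2153, 1132, 2039 and 1970 CPM against 2625 to 3542 (−0.79 ± 0.16, adjusted p = 0.00376, edgeR), and at −0.62 without replicate 2 (adjusted p = 4.34e-06, edgeR). In coagulation 6 of 27 were lower and 5 higher, or 9 higher without D4 replicate 4. Fgg, the gamma chain of fibrinogen, was at 95 to 114 CPM against 175 to 227 (−0.99 ± 0.07, adjusted p = 4.63e-12, edgeR), while prothrombin, F2 (0.25 ± 0.06), and Serpina10 (0.47 ± 0.12) were higher. In complement 6 of 23 were higher, such as C1ra (0.38 ± 0.10), and 2 lower, among them C9 of the membrane attack complex (−0.64 ± 0.10). The number higher in complement was 3 when D4 replicate 2 was left out.

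**Figure D4:**
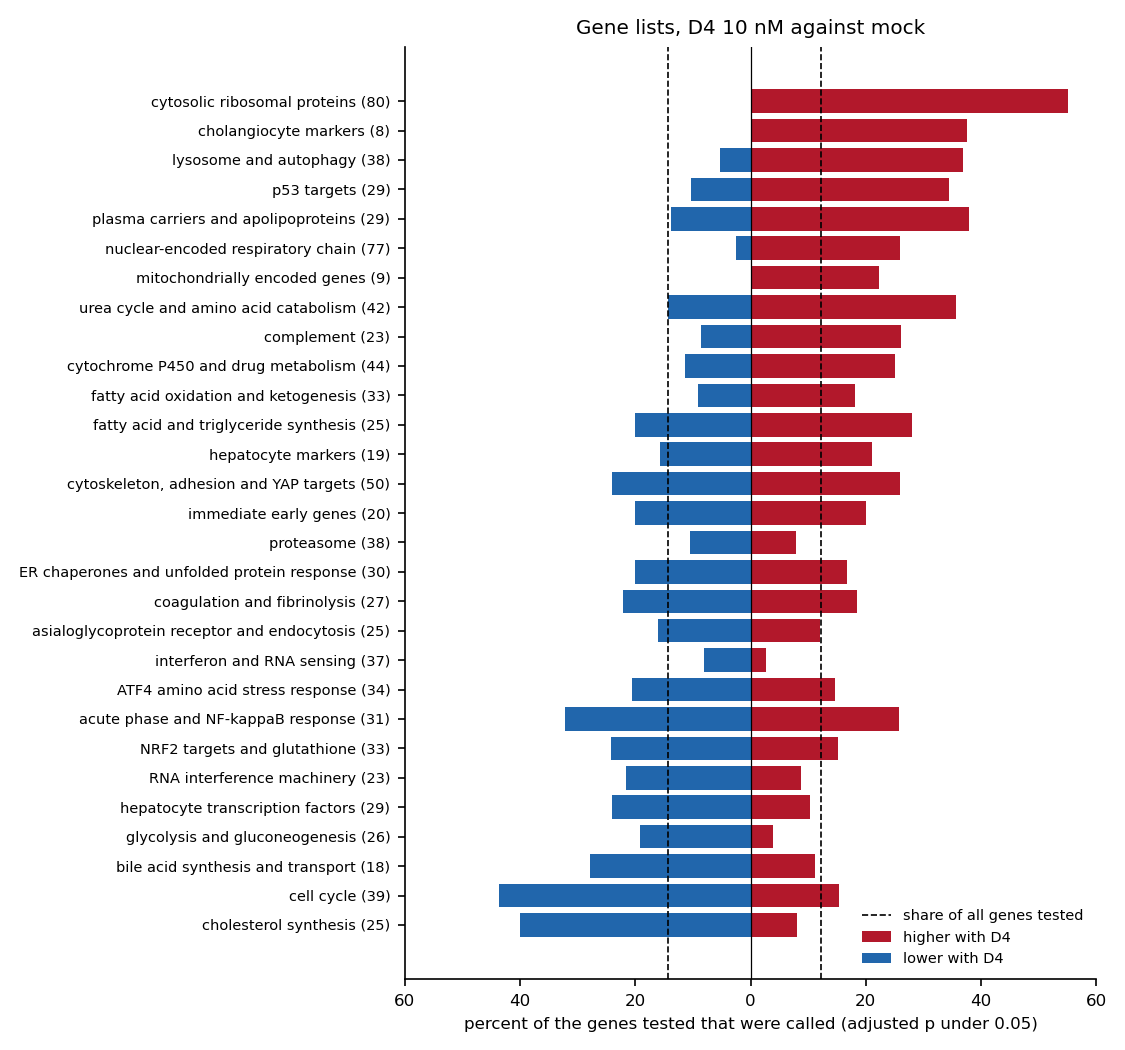
Percent of the tested genes of each list that were called higher (red, to the right) or lower (blue, to the left) with D4 at 10 nM against mock, with the number tested in parentheses; lists with under 8 tested genes are left out. Dashed lines mark 12.2% higher and 14.4% lower over all genes. Ribosomal proteins reach 55% higher, and cell cycle (43.6%) and cholesterol synthesis (40%) reach furthest to the left.

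Genes of innate sensing showed little. In the interferon and RNA sensing list 3 of 37 were called lower and 1 higher, a smaller share than the 26.6% over all genes. The higher gene, the antiviral Rsad2, stood at 88.2, 114, 128 and 423 CPM against 58.8 to 114, so replicate 4 was far above mock and the groups overlapped (1.26 ± 0.40, adjusted p = 0.0387, edgeR), and it was not called without replicate 4 (0.49, adjusted p = 0.129, edgeR). Without replicate 4 the list had 7 lower and 0 higher, and over all libraries left out in turn it had 1 to 7 lower. Ddx58, the RNA sensor RIG-I, changed by −0.39 ± 0.09, Oas1a by −0.46 ± 0.14 and Gbp7 by −0.91 ± 0.27. The acute phase and NF-kappaB list had many calls in both directions, 8 of 31 higher and 10 lower. Il1rn, the interleukin-1 receptor antagonist, was at 3.58, 5.76, 5.18 and 3.65 CPM against 10.7 to 17.7 (−1.63 ± 0.19, adjusted p = 5.37e-08, edgeR), and the adhesion molecule Icam1 changed by −0.64 ± 0.10. Saa3, a serum amyloid, and Fgl1, a fibrinogen-like hepatokine, changed by 0.33 ± 0.07 and 0.49 ± 0.08.

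Stress pathways gave counts near or a little above the background. NRF2 targets and glutathione had 8 of 33 lower, with Gclm, of glutathione synthesis (−0.69 ± 0.07), and thioredoxin Txn1 (−0.57 ± 0.06), and 5 higher, with Gstm1 (0.49 ± 0.08) and Gstm3 (1.33 ± 0.29), and without D4 replicate 2 it had 2 higher. Amino acid stress genes under ATF4 had 7 of 34 lower and 5 higher. Slc7a11, the cystine importer, was at 109 to 150 CPM against 255 to 383 (−1.38 ± 0.11, adjusted p = 4.78e-08, edgeR) and the serine synthesis enzyme Psat1 changed by −0.50 ± 0.07, while Atf3 was higher (0.53 ± 0.13). In the unfolded protein response 6 of 30 were lower, including the chaperones Hspa5 (−0.24 ± 0.06) and Canx (−0.24 ± 0.05), and 5 higher, including Derl3 (0.66 ± 0.14), with ranges of 4 to 7 and 2 to 5 as libraries were left out.

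Among 29 liver transcription factors 7 were lower and 3 higher. Onecut2 was at 129, 83.9, 131 and 144 CPM against 219 to 313 (−1.19 ± 0.14, adjusted p = 3.96e-05, edgeR), the thyroid hormone receptor Thrb changed by −0.63 ± 0.10 and the xenobiotic receptor Nr1i2 by 0.88 ± 0.22. In the fit lacking D4 replicate 2 there were 4 lower. Immediate early genes had 4 of 20 in each direction (2 to 5 lower as libraries were left out), with Btg1 (−0.56 ± 0.07) and Egr1 (−0.53 ± 0.09) lower and Fos higher (0.83 ± 0.20). In the cytoskeleton, adhesion and YAP list 13 of 50 were higher, including Lgals3, a galectin (0.58 ± 0.06), and Krt18, a hepatocyte keratin (0.42 ± 0.06), and 12 lower, including Ajuba, a LIM protein of cell junctions (−0.61 ± 0.06). In the proteasome 3 of 38 were higher and 4 lower (1 to 4 and 2 to 5 as libraries were left out), from Psmd8 (0.26 ± 0.06) to Psma3 (−0.33 ± 0.07).

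Of 23 components of the RNA interference pathway tested, 5 were called lower (21.7%) and 2 higher (8.7%), or 1 to 4 higher as libraries were left out. The shares over all genes were 14.4% lower and 12.2% higher, and the median log2 fold change of the list was 0.02. Ago2, the slicing Argonaute, was at 292, 193, 310 and 311 CPM against 370 to 415 with a median of 398 (−0.52 ± 0.09, adjusted p = 0.000192, edgeR), and at −0.39 without replicate 2. Ago3 changed by −0.60 ± 0.13 and the decapping enzyme Dcp2 by −0.56 ± 0.09, while Tnrc6a, which links Argonaute to mRNA decay, changed by 0.19 ± 0.06. Ago2 and Ago3 both held a 7-base seed match in the 3′-UTR. These 3′-UTRs are long, at 11064 and 12742 bases against a median of 1915 in all genes tested. In the list of the asialoglycoprotein receptor, to which GalNAc binds, and of endocytosis, 4 of 25 were lower and 3 higher (4 to 6 and 1 to 4 as libraries were left out). Eea1, a tether of early endosomes with a mer7m8 match, was at 94.7, 71.4, 97.3 and 91 CPM against 175 to 231 (−1.16 ± 0.09, adjusted p = 6.69e-11, edgeR). Vps35, of the retromer, changed by −0.46 ± 0.06 and the clathrin adaptor Ap2b1 by 0.33 ± 0.05.

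The chemistry of guide position 6 was compared directly at 10 nM. There were 3 direct comparisons, each fitted on its own 8 libraries, and they share the D4 libraries with the comparison against mock. Against D5, with GNA-G at that position, 1913 of 11123 genes differed (17.2%), 746 higher (6.71%) and 1167 lower (10.5%) with D4. Against D6, with GNA-isoG, 214 of 11168 differed (1.92%), 78 higher (0.698%) and 136 lower (1.22%). This count moved with single libraries: it was 104, 90, 60 and 92 without D6 replicates 1, 2, 3 and 4. Against D1, of unrelated sequence, 2667 of 11175 differed (23.9%), 1252 higher (11.2%) and 1415 lower (12.7%).

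On the target, no difference between the Ttr siRNAs passed the threshold. Ttr ranged from 0.574 to 2.2 CPM with D4, from 1.7 to 3.8 with D5 and from 1.03 to 1.75 with D6, scaled over all libraries. The difference between D4 and D5 was −0.85 on the log2 scale, with an approximate 95% interval of −1.61 to −0.08 (adjusted p = 0.145, edgeR). Against D6 the gene was under the count filter, and with no filter the difference was 0.19, with an interval of −0.82 to 1.20 (adjusted p = 0.903, edgeR). The interval against D5 left out 0, but that difference did not pass after adjustment over all genes tested. At counts this low, differences of the sizes within these intervals could have been missed. With D1, Ttr stood at 1015 ± 60.3 CPM, above the mock mean of 662 ± 56.6.

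The 28 genes chosen for their change with D4 against mock are given next as a description, since these comparisons use the same D4 libraries. Of the 14 decreases, 13 were also lower with D4 than with D5, 4 of 12 tested lower than with D6, and 14 lower than with D1, with median differences of −2.03, −0.50 and −2.56. Of the 14 increases 13 were higher with D4 than with D5, 5 higher than with D6 and 13 higher than with D1, with medians of 1.02, 0.50 and 1.54. The exception among the 14 against D5 was Crct1, at 119 ± 22.8 CPM with D4 and 102 ± 40.7 with D5 (difference 0.23, interval −0.39 to 0.84).

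Kpna6 averaged 20.6 ± 3.1 CPM with D4, 119 ± 5.14 with D5 and 34.9 ± 4 with D6, and both differences were called (−2.52 and −0.76). Uhmk1 averaged 66.8 ± 13.7, 278 ± 16.2 and 104 ± 5.72 in the same order (−2.05 and −0.64, both called). Itgb4 averaged 75.2 ± 8.16, 13.2 ± 3.86 and 44 ± 5.15 (2.53 and 0.77, both called). In each of the 3 genes D6 lay between D4 and D5. Tgfbr1 averaged 9.15 ± 1.73 CPM with D4, 35 ± 4.1 with D5 and 12.5 ± 2.25 with D6, and D4 differed from D5 by −1.92, while against D6 the difference of −0.44 was not called (interval −0.82 to −0.07, adjusted p = 0.258, edgeR).

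Another 3 genes with differences between D4 and D6 were picked out after their values were seen. Clic1, a chloride intracellular channel protein, averaged 52.7 ± 3.1 CPM with D4, 191 ± 7.48 with D6, 228 ± 3.68 with D5 and 207 ± 11.8 in mock. The difference between D4 and D6 was −1.87 ± 0.08 (SE, adjusted p = 1.58e-12, edgeR), the largest called decrease in that comparison among genes with a mean of at least 5 CPM. Unc119b, a lipid-binding trafficking protein, averaged 42.6 ± 2.64 CPM with D4, 96.8 ± 5.7 with D6, 96 ± 7.51 with D5 and 89.1 ± 5.2 in mock (−1.19 ± 0.09 against D6 and −1.17 ± 0.09 against D5). Neither gene held a seed match in its 3′-UTR. In the opposite direction Sdc4, a heparan sulfate proteoglycan, averaged 145 ± 6.48 CPM with D4, 71.1 ± 12.1 with D6, 124 ± 6.06 with D5 and 167 ± 14.2 in mock (1.02 ± 0.10 against D6 and 0.23 ± 0.08 against D5).

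By list, 56 of 80 cytosolic ribosomal proteins were called higher with D4 than with D5, 21 of 80 than with D6 and 18 of 80 than with D1, with 0 lower in each and medians of 0.25, 0.26 and 0.16. Against D6 and D1 most of the list did not pass, and these list counts were not recomputed with single libraries left out. Over all genes tested, 6.71% were higher and 10.5% lower with D4 than with D5. Against D6 the shares were 0.698% and 1.22%, and against D1 11.2% and 12.7%. Cholesterol genes were lower with D4 than with D5 in 13 of 25 and in 1 of 25 against D6. Of 39 cell cycle genes 9 were higher with D4 than with D5 and 2 lower (median 0.02), and 27 were higher than with D1 and 1 lower (median 0.64). Of the list of TGF-beta and matrix genes, 18 of 39 were lower with D4 than with D5 and 1 higher. Against D6, 2 of 37 were lower and 0 higher. Of the epithelial list 24 of 53 were higher with D4 than with D5 and 5 lower, and against D6 5 of 53 were higher and 1 lower. Krt19, in contrast, did not part D4 from D5 (0.01, interval −0.17 to 0.20). Actg1, a cytoplasmic actin, was at 253 ± 14.1 CPM with D4 and 51.3 ± 4.94 with D1 (2.30 ± 0.09), where mock had 195 ± 11.8.

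Across the doses of D4, the levels of these genes were set side by side without a test. Kpna6 averaged 124 ± 8.49 CPM at 0.1 nM, 63.2 ± 5.64 at 1 nM, 20.6 ± 3.1 at 10 nM and 24.6 ± 2.63 at 50 nM, against 144 ± 9.44 in mock. Itgb4 averaged 4.11 ± 0.952, 16.7 ± 2.48, 75.2 ± 8.16 and 76.9 ± 8.04 CPM, against 3.94 ± 1.15 in mock. For both genes the mean at 10 nM lay nearer to that at 50 nM than to that at 1 nM. Marcks was at 29.3 ± 6.74 CPM at 1 nM, 93.2 ± 9.96 at 10 nM and 123 ± 9.04 at 50 nM. Ttr was already at 4.13 ± 1.24 CPM at 0.1 nM, where Igfbp1 stood at 759 ± 38.3 CPM beside 692 ± 120 in mock.

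**Figure D5:**
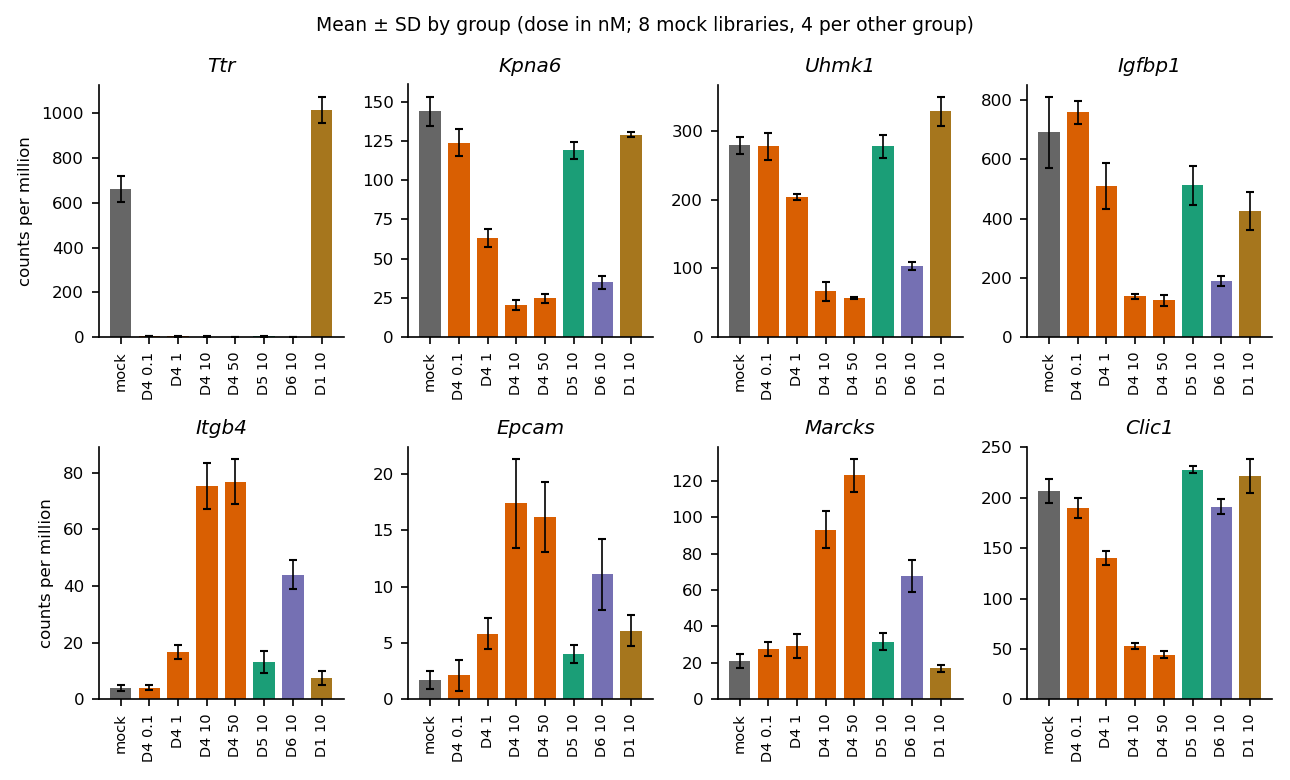
Mean CPM with SD (bars and whiskers, linear axes from 0) of 8 genes in mock (8 libraries) and in each siRNA group (4 libraries), with D4 at 0.1, 1, 10 and 50 nM in orange and D5, D6 and D1 at 10 nM beside it. In Kpna6, Uhmk1 and Igfbp1 the D6 bar lies near the D4 bar at 10 nM and the D5 bar well above it, while for Clic1 D5 and D6 both stand near mock.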

How the data were processed

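Libraries were made with a stranded total RNA kit (TruSeq) and sequenced in 2 runs. Per the labels and the study's methods, the authors filtered reads with fastq-mcf, used STAR with the GRCm39 genome, and assigned single-locus reads to genes in featureCounts 2.0.2; the deposited values are raw counts per gene and run, with 55416 genes and 92 ERCC spike-ins. The authors' DESeq2 1.32.0 tables hold their own fold changes and p-values, and only the gene symbols were taken from them (52340 identifiers).

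Here both runs were summed and ERCC rows left out. edgeR 4.0.16 (TMM, filterByExpr, robust quasi-likelihood F test) was fitted to the 4 D4 and 8 mock libraries, and to D4 with each of D5, D6 and D1, with Benjamini-Hochberg adjustment. The standard error is the absolute log2 fold change divided by the square root of F, and approximate 95% intervals are 1.96 standard errors to each side. The text names Ttr, Hao1, F12 and Gapdh, the 14 largest changes in each direction (adjusted p under 0.05, mean of at least 5 CPM, no overlap) and up to 5 genes per list by smallest p; Fbln2, Skil, Tgfb1, Smad3, Cdh1, Zeb1, Cldn2, Spint1, Pkp3, Esrp1, Sox9, Ecm1, Cps1, Asgr1, Tat, Clic1, Unc119b, Sdc4 and Actg1 were named after their values were seen. The libraries, comparisons and lists were chosen with earlier results of these data known. Alternatives were RLE size factors, DESeq2 1.42.0, no count filter, all libraries in a single fit, a replicate block, each run alone and each library left out. The model scripts were tested on simulated data. The guide sequence and a few genes under these rules are not reported here.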

Additional observations from a re-analysis of the deposited data

Results flagged for a closer look

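Single libraries that lay far from the rest of their group were looked for by Dixon's test in 286 groups of values (141 genes, the total gene count and the ERCC share, each with D4 and in mock), and 16 passed its 95% limit. Chance alone passes about 1 in 20 groups.

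With D4, replicate 2 was the lowest library for Apob (1132 CPM, others 1970 to 2153), Ago2 (193, others 292 to 311) and Slco1a1 (2.19, others 5.38 to 6.08). Other D4 libraries were apart for Hao1 (replicate 1, 17.7 CPM, others 20 to 20.4), Tgm1 (replicate 3, 23.1, others 26.9 to 27.6) and Mcm3 (replicate 4, 91.2, others 73.1 to 75.2).

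In mock, the lowest library was apart for Ttr (replicate 4, 544 CPM, others 633 to 722), Cyp7b1 (replicate 2, 0.294, others up to 2.96), Btg2 (replicate 3, 82.6, others 100 to 115) and Egr1 (replicate 4, 68.9, others 84.5 to 101). The highest was apart for F13b (replicate 5, 15.4 CPM, others 11 to 12.9), Stard4 (replicate 2, 125, others 115 to 118), Apoa4 (replicate 5, 403, others 337 to 367), Krt19 (replicate 8, 134, others 106 to 117), mt-Nd4 (replicate 6, 2739, others 2473 to 2579) and Spint1 (replicate 4, 1.95, others 0.565 to 0.986).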

How the results depend on the processing

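Against mock, the 3019 calls became 3012 with RLE size factors, 2896 with DESeq2, 2978 with no count filter, 3535 with all libraries in a single fit, 2413 and 2308 with either run alone and 2501 to 3058 with single libraries left out. The log2 fold change of Ttr ran from −9.01 to −8.50 with libraries left out. Of 178 named genes 29 lost the call under some alternative and 0 changed sign. Against D6 the 214 calls were the least stable count: 340 with DESeq2, 456 with no filter, 798 with all libraries in a single fit, 381 with the replicate block and 60 to 225 with libraries left out, lowest without D6 replicate 3. The cause was not tested. Deviations of same-numbered D4 and mock libraries correlated at −0.13 to 0.25, and those of libraries with other numbers at −0.21 to 0.17. Of 4 D4 libraries, 2 correlated best with their own number. With so few pairs, whether replicate numbers pair the samples is not settled. With the replicate block the calls were 2616 against mock, 2244 against D5 (1913 without it) and 2473 against D1 (2667 without it). Depth limits genes of a few reads, such as Ttr with D4 and Ltbp2 or Esrp1, and counting error is not the only spread in such values.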
